A study of Mus musculus with 8 samples.

Results

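The genes described here serve the regulated secretory pathway of endocrine cells: the content and membrane of the secretory granule, the machinery that docks and fuses it, and the sensing of glucose. The members were 36 mouse genes chosen by symbol, and each was taken from the scanner files as the non-control probes carrying that symbol, with the probe of highest mean over all arrays standing for the gene. All 36 were on the array and all 36 passed the filter on dim probes, out of 19390 genes and unnamed transcripts tested. RNA was measured in microdissected pancreatic epithelium of mouse embryos at e15.5, counted in days after mating. The 4 wild-type samples carried Rosa26-CreER, a tamoxifen-inducible Cre recombinase expressed from a ubiquitous locus, and were labelled wild-type. The 4 mutant samples carried the same Rosa26-CreER together with 2 floxed copies of Sox9 (Sox9 fl/fl). All dams had been given tamoxifen (6 mg/40 g, at e12.5), so the controls had the recombinase and the drug as well. Mutants and controls were littermates on a mixed FVB/N, C57Bl/6J and CD1 background, and each sample pooled the RNA of 4 pancreata. Because Rosa26-CreER is not restricted to one cell type, Sox9 could be deleted in any cell of these embryos. In bulk RNA of this kind, fewer endocrine cells and less RNA per endocrine cell cannot be told apart.

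Endocrine cells store peptide hormones in dense-core granules, whose content is condensed by granins and cut to its mature form by prohormone convertases, carboxypeptidase E and an amidating enzyme. In beta cells, glucose enters through a transporter and is phosphorylated, the resulting rise in ATP closes the ATP-sensitive potassium channel, and calcium entry then triggers fusion of the granule through the SNARE proteins, with RAB3 proteins, priming factors and synaptotagmins acting around them. The same granule and fusion genes are used by neurons, including those that innervate the pancreas. Sox9 is a transcription factor of the progenitor and duct epithelium from which endocrine precursors, marked by Neurog3, arise.

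A level is given throughout as log2 of the background-subtracted, processed spot signal minus the 75th percentile of that array, so that 0 is the level of the probe at the array's 75th percentile, and replicates are listed in the order 1 to 4. A difference is mutant minus wild type, with the standard error (SE) of the limma fit over all 19390 features, and a gene is called when its Benjamini-Hochberg adjusted p over those features is under 0.05. Folds are the antilog of the difference. Floxed Sox9 itself read 1.83 ± 0.07 in wild-type and 0.50 ± 0.08 in mutant samples (SD, n = 4 each), a difference of -1.33 (adjusted p 0.000806; -1.30 without mutant replicate 2), though whether its probe lies in the deleted exons was not examined. Neurog3 read 1.04 ± 0.12 and -0.85 ± 0.29, a difference of -1.89 (adjusted p 0.00216; -1.93 without mutant replicate 2). The epithelial label was met by high acinar and hormone levels, but markers of mesenchyme (Col1a1, 6.18 ± 0.12 in wild type), endothelium (Cdh5, 2.42 ± 0.11), neurons (Nefl, 1.03 ± 0.50) and glia (Erbb3, 2.31 ± 0.12) were also well above background. The array of mutant replicate 2 stood apart, with a median signal of 756 scanner units against 219 to 272 on the other 7 arrays. Its median correlation with its own genotype across features, 1 probe each, was 0.923 against at least 0.9935 for the others. The members' differences and the counts of calls are therefore given with all 8 arrays and again without that array. All wild-type samples were on 1 slide and all mutant samples on another, scanned in separate runs, so slide and genotype cannot be told apart. The submitters call the pools biological replicates without saying which litters they came from, so p-values measure the spread between these pools.

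To show the regulatory sequence shared by some of the members, the RefSeq promoter windows (GRCm38, 250 bases before to 50 after a gene's start) were searched on both strands for TGACGTCA, the cAMP response element, a palindrome bound by CREB family factors. Windows were found for 24 of the 36 members, 28 windows in all, and not for the other 12. TGACGTCA was in 4 of the 28 windows (14.3%) against 588 of all 32851 windows (1.79%). The 4 were those of Chgb (chr2:132781492-132781661, plus strand, motif starting 72 bases before the start), Scg2 (chr1:79440007-79440176, minus strand, 68 bases before), Pcsk1 (chr13:75089707-75089876, plus strand, 78 bases before) and Slc18a2 (chr19:59260728-59260897, plus strand, 4 bases before). They are shown 5′ to 3′ from 150 bases before to 20 after the start, with the motif in capitals.
Chgb: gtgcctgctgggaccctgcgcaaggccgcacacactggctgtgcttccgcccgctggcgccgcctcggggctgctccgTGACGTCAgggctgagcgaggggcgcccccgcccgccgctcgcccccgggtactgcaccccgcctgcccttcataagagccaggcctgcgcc
Scg2: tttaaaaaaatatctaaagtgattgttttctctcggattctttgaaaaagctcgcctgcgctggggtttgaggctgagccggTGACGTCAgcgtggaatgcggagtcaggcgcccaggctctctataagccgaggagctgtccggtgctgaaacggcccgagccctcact
Pcsk1: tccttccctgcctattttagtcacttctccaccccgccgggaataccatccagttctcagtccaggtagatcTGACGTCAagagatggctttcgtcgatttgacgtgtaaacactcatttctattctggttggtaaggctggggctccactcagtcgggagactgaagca
Slc18a2: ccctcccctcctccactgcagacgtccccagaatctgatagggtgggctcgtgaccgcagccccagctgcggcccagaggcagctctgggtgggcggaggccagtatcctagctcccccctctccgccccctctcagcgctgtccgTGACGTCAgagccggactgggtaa
Of these 4 genes, Chgb and Scg2 fell in the mutant and Pcsk1 and Slc18a2 were not called in either fit, as given below by role. The RE1 element, the site of the repressor REST, was found in 0 of the 28 windows and in 0.0639% of all windows. With only 21 of the 32851 windows matching, 0 in 28 tells nothing about the members. CAGATG, an E-box of the kind that NEUROD1 and NEUROG3 bind, was in 2 of the 28 (7.14% against 17.2% of all), those of Cadps and G6pc2. GGGCGG, the GC box, was in 19 of the 28 (67.9% against 35.7%). A match describes letters in the window and not binding.

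With all 8 arrays, 4 of the 36 members were lower in the mutant, namely Chgb, Scg2, Abcc8 and Cadps, and 1 was higher, namely Pam. Over all features tested, 3.42% were called lower and 2.11% higher, and the members' 4 of 36 lower make 11.1%. The median difference of the 36 was -0.41 against 0 over all features, and 28 of the 36 differences were negative. Every mutant value lay below every wild-type value in 12 members, where 15.2% of all features did so, and above in 1, where 10.6% of all features did so. Without mutant replicate 2, 13 members were lower (36.1%, against 10.6% of all features) and 2 were higher (against 6.77%), with a median of -0.49 against -0.03 over all features. The 13 were the first 4 with Chga, Scg3, Pcsk2, Ptprn, Slc30a8, G6pc2, Kcnj11, Syt13 and Scgn, and the 2 were Pam and Slc2a2. Mutant values then all lay below wild type in 17 members (against 20.9% of all features) and above in 2 (against 14.0%). The other 21 members were called in neither fit. Abcc8 and Pam were called in each of the 8 fits that left out 1 array, Cadps in 5 of them, Scg2 in 2 and Chgb in 1. The median signal was 756 on mutant replicate 2 and 219 to 272 on the other arrays. The 75th percentile was 2550 on mutant replicate 2 and 1971 to 2410 on the others. When arrays were centred on their median in place of the 75th percentile, the median of all features moved to -0.40 and that of the members to -0.81. With that centring, 0 members were called in either direction. With normexp background correction 0 were called as well, while the sign of the 5 called differences was the same under every setting run for them (Chgb was not analysed in the deposited series table). Abcc8 lost its call when its probes were averaged (-1.08, adjusted p 0.0821), and Scg2 (-1.31, adjusted p 0.187) and Cadps (-1.03, adjusted p 0.069) lost theirs under quantile normalization.

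**Figure D1:**
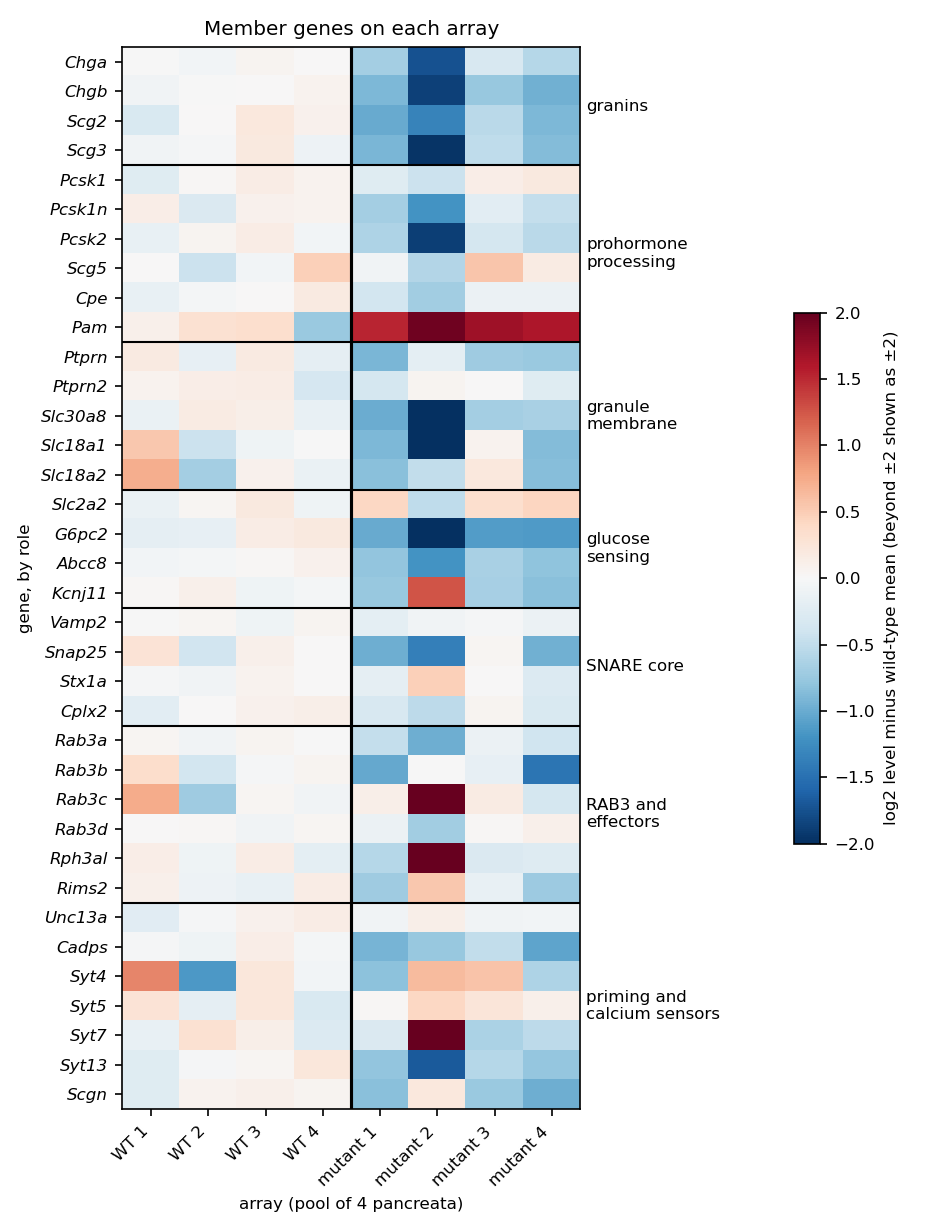
Heat map of the 36 members (rows, by role) on the 8 arrays (columns, WT for wild type), coloured by log2 level minus the wild-type mean of the gene, with values beyond ±2 shown as ±2. The granin rows are blue on all 4 mutant arrays, Pam is red on all 4, and mutant replicate 2 has the strongest colours in both directions.

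**Figure D2:**
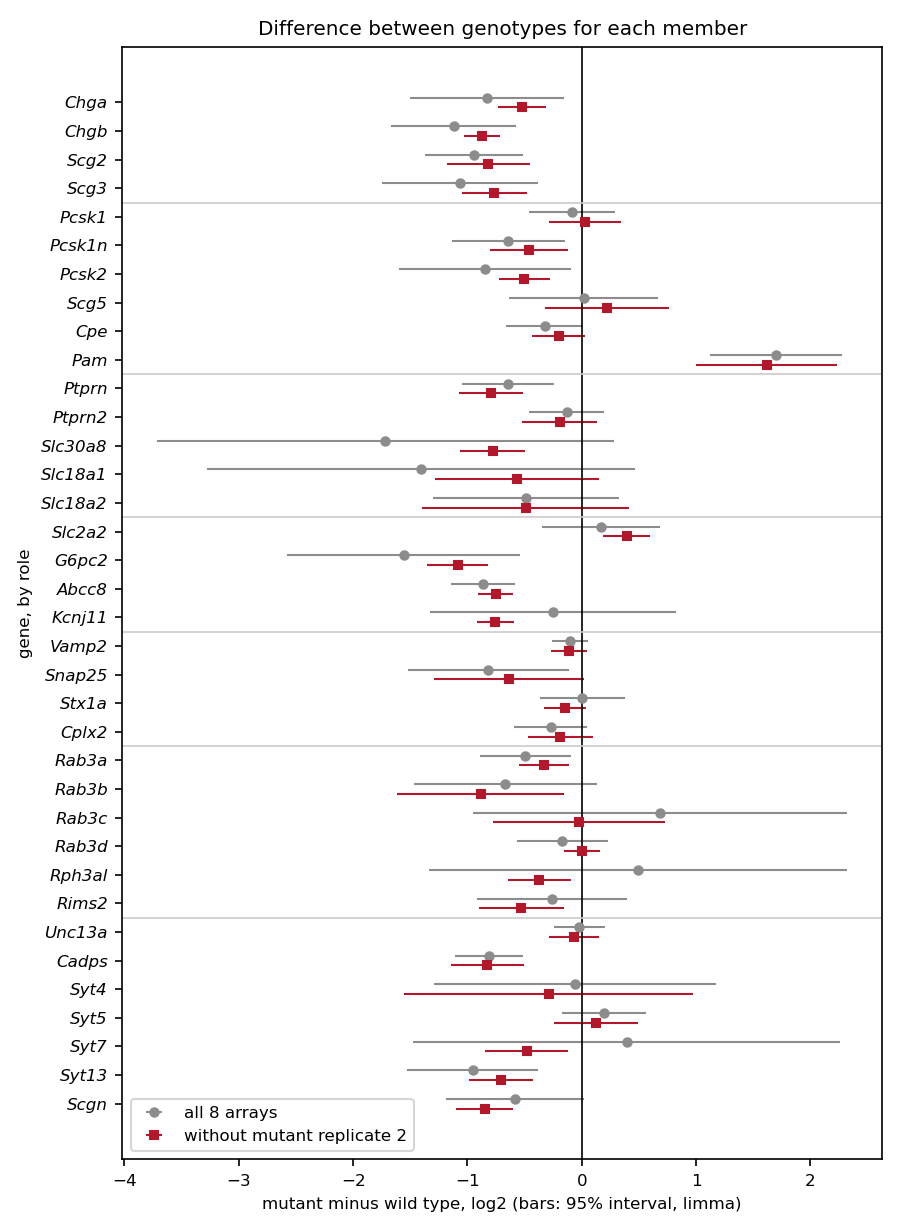
Mutant minus wild-type log2 difference of each member with its unadjusted 95% interval from limma, for all 8 arrays (grey circles, n = 4 and 4) and without mutant replicate 2 (red squares, n = 4 and 3). The granins, Abcc8 and Cadps lie below 0 in both fits, Pam above 0 in both, and the grey intervals of Slc30a8, Slc18a1, Rab3c, Rph3al and Syt7 are the widest.

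All 4 granins had lower values in every mutant sample than in any wild-type sample, and 2 of the 4 fell with all arrays and 4 of 4 without mutant replicate 2. Over all features, 15.2% had every mutant value below wild type. Of all features, 3.42% were called lower and 2.11% higher with all arrays, and 10.6% and 6.77% without mutant replicate 2. These shares also stand beside the counts of the other role groups below. Chgb encodes chromogranin B, an acidic protein that aggregates in the granule core. Its levels were 5.12, 5.19, 5.21 and 5.26 in wild type and 4.30, 3.33, 4.44 and 4.24 in the mutants. The wild-type values lay within a narrow band, and mutant replicate 2 was the lowest of the mutants. Chgb fell 2.17-fold, a difference of -1.12 (SE 0.23, adjusted p 0.0391), and 1.83-fold without mutant replicate 2 (-0.87, SE 0.07, adjusted p 0.001). Its probe lies at chr2:132486408-132486467 in mm8. Scg2, secretogranin II, the precursor of secretoneurin, read -0.91, -0.60, -0.39 and -0.53 in wild type and -1.62, -1.94, -1.15 and -1.51 in the mutants. The groups again did not overlap, with mutant replicate 3 nearest to wild type. The difference was -0.94 (SE 0.18, 1.93-fold lower, adjusted p 0.0324), and -0.82 (adjusted p 0.0157) once mutant replicate 2 was left out. The Scg2 probe lies at chr1:79314468-79314527 in mm8.

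Chga, chromogranin A, which takes part in granule formation, read 3.89, 3.83, 3.94 and 3.90 in wild type and 3.21, 2.14, 3.57 and 3.32 in the mutants. Its wild-type SD of 0.04 was the smallest of all members, and the mutant SD of 0.63 came mostly from replicate 2. The difference of -0.83 (SE 0.29) was not called with all arrays (adjusted p 0.134), and Chga fell 1.44-fold without replicate 2 (-0.52, SE 0.09, adjusted p 0.0112). Scg3, secretogranin III, which anchors chromogranin A to the granule membrane, read 1.91, 1.97, 2.18 and 1.88 in wild type and 1.08, 0.02, 1.47 and 1.11 in the mutants. It had the same shape, with no overlap and replicate 2 lowest. Its difference was -1.07 (SE 0.29, adjusted p 0.081), and -0.76 (SE 0.12, adjusted p 0.00849) without replicate 2.

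**Figure D3:**
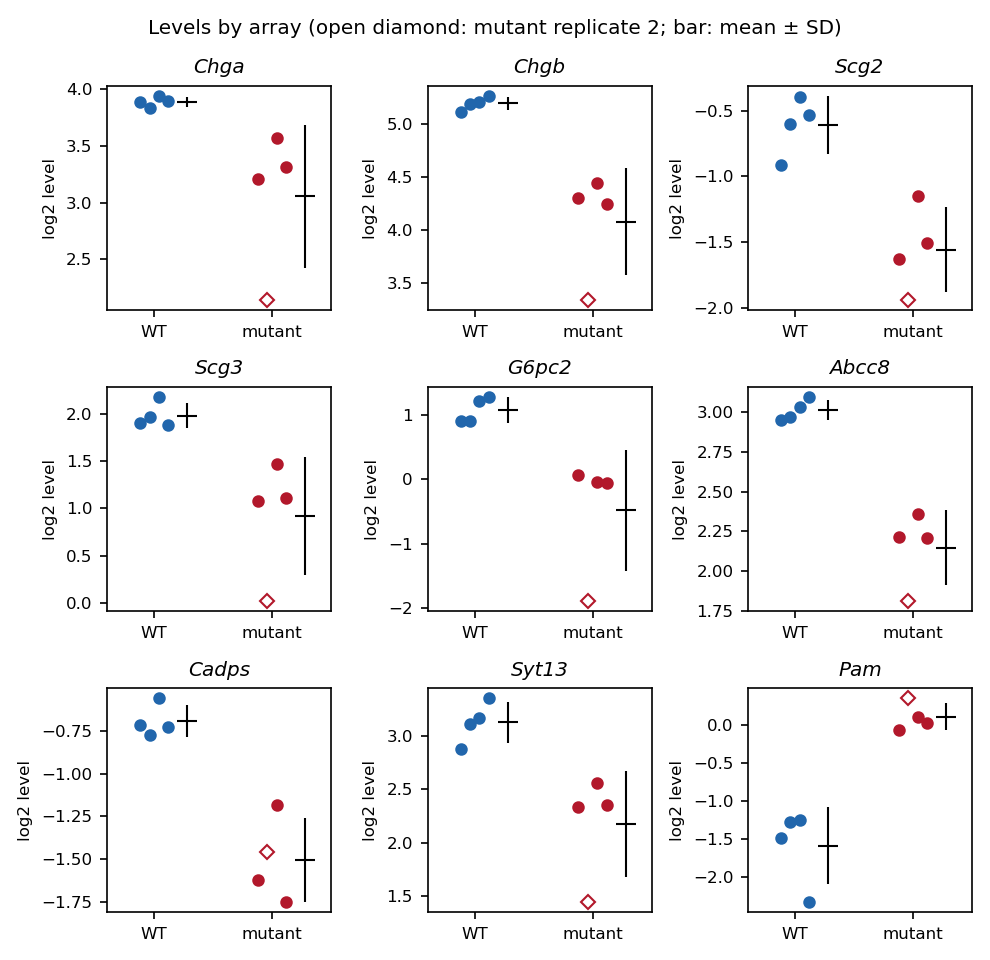
Log2 level relative to the array's 75th percentile for 9 members, 1 point per pool (blue, 4 wild type; red, 4 mutant; open diamond, mutant replicate 2), with a bar at the mean ± SD of all 4, each panel on its own scale that does not start at 0. In 8 panels all mutants lie below all wild-type pools, and in the Pam panel they lie above.

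The 6 members that cut and finish prohormones did not move as one: 1 of 6 was higher and 0 lower with all arrays, and 1 was lower and 1 higher without mutant replicate 2. The group median difference was -0.20, and -0.09 without replicate 2. Pcsk2 encodes prohormone convertase 2, which cuts proglucagon to glucagon and takes part in the processing of proinsulin. It read 3.15, 3.35, 3.43 and 3.23 in wild type and 2.67, 1.41, 2.94 and 2.75 in the mutants. No mutant value reached the wild-type range, and replicate 2 was far below the other mutants. The difference was -0.85 (SE 0.32, adjusted p 0.157), and -0.50 (SE 0.09, 1.42-fold lower, adjusted p 0.0153) without replicate 2. A second Pcsk2 probe read -0.81, and -0.45 (adjusted p 0.0804) without replicate 2. Pcsk1, the convertase that begins the cutting of proinsulin, had wild-type values of 0.41, 0.67, 0.79 and 0.71 and mutant values of 0.40, 0.21, 0.78 and 0.84, which overlapped. Its difference was -0.09 (95% interval -0.47 to 0.29, adjusted p 0.746), and 0.03 (95% interval -0.29 to 0.35) without replicate 2, so its sign turned between the fits. The interval without replicate 2 excludes a fall of the size measured for Pcsk2.

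The inhibitors and partners of the convertases also differed among themselves. Pcsk1n, which encodes proSAAS, an inhibitor of convertase 1, had a difference of -0.64 (adjusted p 0.121), and -0.46 (adjusted p 0.0707) without replicate 2, with wild-type replicate 2 inside the mutant range. Scg5, which encodes 7B2, the chaperone of convertase 2, had 0.02 (95% interval -0.63 to 0.67), and 0.22 without replicate 2, and was negative (-0.38) when arrays were centred on their median. Cpe, carboxypeptidase E, which trims basic residues left by the convertases, read 3.88, 4.0, 4.05 and 4.21 in wild type and 3.67, 3.34, 3.91 and 3.92 in the mutants. These ranges overlapped, and the difference of -0.32 (SE 0.14, adjusted p 0.213; -0.20 without replicate 2, adjusted p 0.196) was not called.

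Pam encodes the enzyme that amidates the C terminus of peptide hormones, and it was the one member called higher with all arrays. On its main probe (chr1:99652241-99652300 in mm8) it read -1.49, -1.28, -1.25 and -2.33 in wild type and -0.06, 0.36, 0.11 and 0.03 in the mutants. All mutants lay above all wild-type samples, and wild-type replicate 4 was the lowest. The difference was 1.70 (SE 0.25, 3.25-fold higher, adjusted p 0.0126), and 1.62 (adjusted p 0.00935) without replicate 2. A second probe for the same transcript read -1.22 ± 0.64 in wild type and -1.0 ± 0.15 in the mutants (SD, n = 4 each), a difference of 0.23 (SE 0.30, adjusted p 0.633). The probes of Pam therefore disagreed, and the call was lost when the probe brightest in wild type was used or when probes were averaged (difference 0.96, adjusted p 0.0981). The reason for this disagreement was not tested.

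Of the 5 granule membrane members, 0 were called with all arrays and 2 were lower without mutant replicate 2. Ptprn encodes IA-2, a granule membrane protein and autoantigen of type 1 diabetes. It read -1.02, -1.36, -1.01 and -1.37 in wild type and -2.11, -1.39, -1.91 and -1.93 in the mutants. Here mutant replicate 2 was the nearest of the mutants to wild type and missed overlap by a small margin. The difference was -0.64 (SE 0.17, adjusted p 0.0775), and -0.79 (SE 0.12, 1.73-fold lower, adjusted p 0.00735) without it. The related Ptprn2 (IA-2 beta) had -0.13 (95% interval -0.46 to 0.20), and -0.19 without replicate 2, with overlapping groups. Slc30a8 encodes ZnT8, which loads zinc into insulin granules. Its wild-type levels were -2.50, -2.20, -2.24 and -2.50 and its mutant levels -3.36, -6.90, -3.04 and -3.01. On mutant replicate 2 the probe was not well above background, so that value is only a bound. With it the difference was -1.72 (SE 0.85, adjusted p 0.25), and without it -0.78 (SE 0.12, 1.71-fold lower, adjusted p 0.00836).

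The vesicular monoamine transporters, which fill granules with amines, are the other 2 of this group. Slc18a1 read -2.38, -3.34, -3.0 and -2.92 in wild type and -3.81, -6.82, -2.84 and -3.78 in the mutants, with mutant replicate 2 again not well above background. Its groups overlapped through mutant replicate 3, and its difference was -1.40 (adjusted p 0.308), or -0.57 (95% interval -1.28 to 0.15) without replicate 2. Slc18a2 read -1.21, -2.62, -1.85 and -2.07 and -2.77, -2.43, -1.73 and -2.78. Wild-type replicate 1 and mutant replicate 3 were the highest of their groups, the ranges overlapped, and the difference was -0.49 (adjusted p 0.396), or -0.49 (adjusted p 0.397) without replicate 2.

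Of the 4 glucose sensing members, 1 fell with all arrays (Abcc8), and without mutant replicate 2, 3 fell and 1 rose. Abcc8 encodes SUR1, the sulfonylurea receptor subunit of the ATP-sensitive potassium channel. It read 2.95, 2.97, 3.03 and 3.09 in wild type and 2.22, 1.81, 2.36 and 2.21 in the mutants. The mutants lay well below wild type with no overlap, replicate 2 lowest, and both SDs were small (0.06 and 0.24). Abcc8 fell 1.82-fold, a difference of -0.86 (SE 0.12, adjusted p 0.0113), and 1.69-fold without replicate 2 (-0.75, SE 0.06, adjusted p 0.00123). Kcnj11 encodes Kir6.2, the pore of the same channel, and is a neighbour of Abcc8 in the genome. Its levels were -1.32, -1.23, -1.42 and -1.38 in wild type and -2.10, -0.07, -2.01 and -2.17 in the mutants. Mutant replicate 2 lay above all wild-type samples and the other 3 mutants below them all. The difference was therefore -0.25 (SE 0.46, adjusted p 0.736) with all arrays and -0.76 (SE 0.07, 1.69-fold lower, adjusted p 0.00134) without replicate 2, a size like that of Abcc8 (-0.75).

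G6pc2, the islet glucose-6-phosphatase catalytic subunit, read 0.90, 0.91, 1.22 and 1.27 in wild type and 0.06, -1.89, -0.04 and -0.06 in the mutants. All mutants lay below wild type, 3 of them close together and replicate 2 far lower. The difference was -1.56 (SE 0.44, adjusted p 0.0846), and without replicate 2 it was -1.09 (SE 0.11, 2.12-fold lower, adjusted p 0.00227). Slc2a2 encodes GLUT2, the glucose transporter of mouse beta cells, which earlier pancreatic progenitors also express. It read -0.10, 0.07, 0.23 and -0.06 in wild type and 0.44, -0.48, 0.37 and 0.47 in the mutants. Mutants 1, 3 and 4 lay above every wild-type sample and replicate 2 below them all. The difference was 0.17 (SE 0.22, adjusted p 0.636), and 0.39 (SE 0.09, 1.31-fold higher, adjusted p 0.0267) without replicate 2, and its sign turned (-0.23) when all arrays were centred on their median. A second Slc2a2 probe had 0.61 (adjusted p 0.0784), and 0.75 (adjusted p 0.00582) without replicate 2.

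None of the 4 members of the SNARE fusion core was called with all arrays or without mutant replicate 2, with group medians of -0.19 and -0.17. Vamp2, the vesicle SNARE synaptobrevin, had -0.10 (95% interval -0.26 to 0.05), and -0.11 without replicate 2. Its other 2 probes read -0.48 and -0.43, and -0.31 (adjusted p 0.0287) and -0.35 (adjusted p 0.0609) without replicate 2. Stx1a, the plasma membrane SNARE syntaxin 1A, had 0.01 (95% interval -0.36 to 0.38), and -0.15 (-0.33 to 0.04) without replicate 2, and was negative under quantile normalization (-0.07) and median centring (-0.39). Cplx2, complexin 2, which clamps and then supports fusion, read 2.11, 2.33, 2.40 and 2.44 in wild type and 2.01, 1.79, 2.38 and 2.01 in the mutants. Mutant replicate 3 lay within the wild-type range, and the difference was -0.27 (SE 0.14, adjusted p 0.255), or -0.19 without replicate 2. The other Cplx2 probes disagreed in sign, with -0.16, 0.16 and 0.49, and -0.10, -0.19 and 0.22 without replicate 2. Snap25, the other plasma membrane SNARE, read -1.15, -1.82, -1.34 and -1.42 in wild type and -2.41, -2.80, -1.40 and -2.40 in the mutants. Mutant replicate 3 alone lay inside the wild-type range. The difference of -0.82 (SE 0.30, adjusted p 0.148; -0.64 without replicate 2, adjusted p 0.152) passed the threshold only in the fit without mutant replicate 3 (-1.10, adjusted p 0.0405). The other Snap25 probes read -0.77 and 0.05, and -0.62 and -0.81 without replicate 2.

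The 6 RAB3 and effector members gave 0 calls in both fits, with group medians of -0.21 and -0.35. The RAB3 proteins are small GTPases on the granule that recruit effectors before docking. Rab3a had -0.49 (SE 0.17, adjusted p 0.133), and -0.33 (adjusted p 0.0528) without replicate 2, and was the one member of this group whose 4 mutant values all lay below wild type. Rab3b read -1.52, -2.24, -1.90 and -1.82 in wild type and -2.90, -1.89, -2.04 and -3.33 in the mutants, with overlap. Its difference was -0.67 (adjusted p 0.261), and -0.89 (adjusted p 0.0907) without replicate 2. Rab3d, which acts in exocrine as well as endocrine granules, read 2.53, 2.54, 2.45 and 2.55 and 2.40, 1.83, 2.54 and 2.63. Without replicate 2 its difference was 0.00 (95% interval -0.15 to 0.16), and with it -0.17 (95% interval -0.57 to 0.23), so a change of the size called for Abcc8 lies outside both intervals. Rab3c had 0.68 with all arrays and -0.02 without replicate 2, and its probe was not well above background on wild-type replicate 2.

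The effectors of RAB3 depended on mutant replicate 2. Rph3al, noc2, a RAB3 and RAB27 effector of endocrine and exocrine cells, read -0.91 on that array against -4.55, -4.26 and -4.24 on the other mutants and -3.84, -4.06, -3.84 and -4.18 in wild type. Its difference was 0.49 with all arrays, and -0.37 (95% interval -0.65 to -0.09, adjusted p 0.0714) without it. Rims2, the scaffold that ties RAB3 to the release site, had -0.26, and -0.53 (adjusted p 0.0616) without it. A second Rims2 probe had -0.69 (adjusted p 0.0616), and -0.64 (adjusted p 0.0411) without it.

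Among the 7 priming factors and calcium sensors, 1 fell with all arrays and 3 without mutant replicate 2. Cadps encodes CAPS1, which primes dense-core granules for fusion. It read -0.72, -0.77, -0.56 and -0.73 in wild type and -1.62, -1.46, -1.18 and -1.75 in the mutants, with its main probe at chr14:11166180-11166239 in mm8. The groups did not overlap, and replicate 2 was within the range of the other mutants. Cadps fell 1.75-fold, a difference of -0.81 (SE 0.13, adjusted p 0.0164), and -0.82 (SE 0.14, adjusted p 0.0104) without replicate 2. A second Cadps probe had -0.70, and -0.86 (adjusted p 0.0132) without replicate 2. Unc13a, the priming factor Munc13-1, had -0.02 (95% interval -0.25 to 0.20), and -0.07 without replicate 2. Its second probe had -0.41, and -0.56 (adjusted p 0.11) without replicate 2.

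Syt13, an atypical synaptotagmin of endocrine cells, read 2.88, 3.11, 3.17 and 3.35 in wild type and 2.34, 1.44, 2.56 and 2.36 in the mutants. All mutants lay below wild type. The difference was -0.95 (SE 0.25, adjusted p 0.0695), and -0.71 (SE 0.12, 1.63-fold lower, adjusted p 0.0107) without replicate 2. Its second, dimmer probe had 0.27, and -0.31 without replicate 2. Scgn, secretagogin, a calcium-binding protein of islet cells, read -1.64, -1.33, -1.30 and -1.34 in wild type and -2.23, -1.19, -2.14 and -2.38 in the mutants. Mutant replicate 2 lay above all wild-type samples and the other 3 below them. The difference was -0.58 (adjusted p 0.21), and -0.85 (SE 0.10, 1.80-fold lower, adjusted p 0.00394) without replicate 2.

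The other 3 synaptotagmins among the members, Syt4, Syt5 and Syt7, were not called on their main probes in either fit. Syt7, the high-affinity sensor of insulin and glucagon release, read -2.21 on mutant replicate 2 against -5.50, -5.85 and -5.75 on the other mutants and -5.37, -4.92, -5.10 and -5.49 in wild type. Its difference was 0.39, and -0.48 (adjusted p 0.074) without that array. A second Syt7 probe had 0.00 with all arrays, and was called lower without mutant replicate 2 (-0.58, adjusted p 0.0235). Syt5 had 0.20 (95% interval -0.17 to 0.56) and 0.12, and was negative under median centring (-0.20), quantile normalization (-0.79) and normexp (-0.37). Syt4, a granule synaptotagmin that alters the calcium dependence of insulin secretion in maturing beta cells, had -0.06 with the 95% interval -1.29 to 1.18, wide because its wild-type SD of 0.88 was the largest of all members.

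That spread in Syt4 was shared with markers of neurons. The mean level of 12 neuron markers, all 12 of which passed the filter on dim probes, was -0.57, -1.84, -1.11 and -1.31 in wild type and -2.34, -1.23, -1.15 and -2.33 in the mutants. It was highest on wild-type replicate 1 and low on wild-type replicate 2 and mutant replicates 1 and 4. Syt4 read -2.43, -4.55, -3.18 and -3.47 in wild type and -4.24, -2.77, -2.84 and -4.02 in the mutants, likewise highest on wild-type replicate 1 and lowest on wild-type replicate 2 and mutants 1 and 4. Snap25, Slc18a1, Slc18a2 and Rab3b had the same order of high and low arrays within the wild-type samples at their extremes, replicate 1 highest and replicate 2 lowest, and among mutants 1, 3 and 4 each was highest on replicate 3. On mutant replicate 2 they parted. Snap25 (-2.80) and Slc18a1 (-6.82, not well above background) were there at their lowest of all arrays. Slc18a2 (-2.43) lay between the other mutants, and Rab3b (-1.89) was the highest of the mutants. Pcsk1n and Rab3c, not drawn in the figure, had the same extremes among the wild-type samples and among mutants 1, 3 and 4. On mutant replicate 2, Pcsk1n (1.13) was at its lowest of all arrays and Rab3c (-2.67) at its highest. By genotype, 1 of the 12 neuron markers was lower (Elavl4, -1.05, adjusted p 0.0493) and 0 higher, with a median of -0.50, and without mutant replicate 2 Elavl4 (-0.90) was again the one called, with a median of -0.62. Nefl (-0.61), Tubb3 (-0.89) and Nefm (-0.33), those with the highest wild-type levels, were not called. The part of nerve tissue in the values of these members was not tested.

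**Figure D4:**
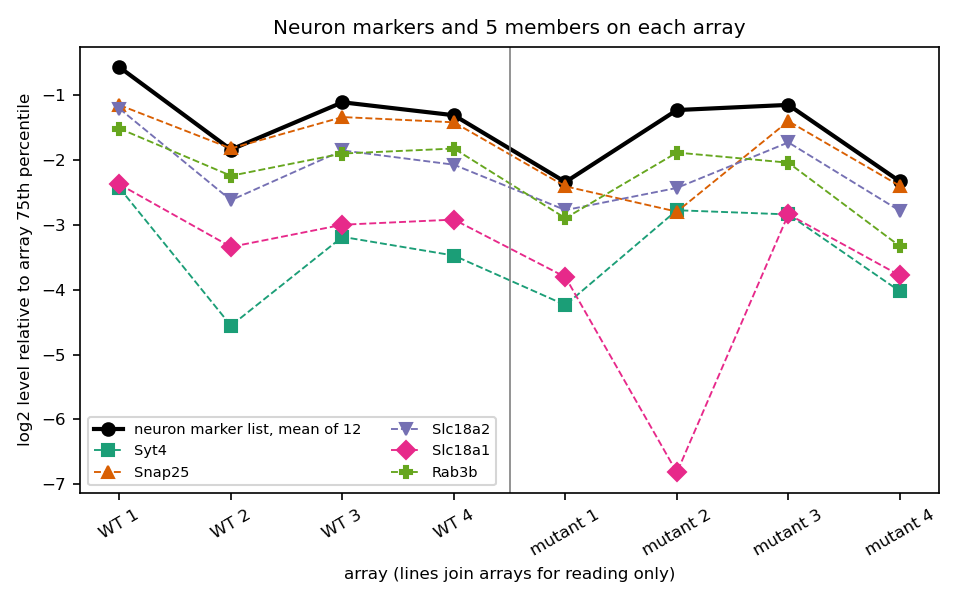
Log2 level relative to the array's 75th percentile on each of the 8 arrays for the mean of 12 neuron markers (black) and for 5 members (dashed), with lines joining arrays only to guide the eye. All 6 are highest among the wild-type arrays on replicate 1 and lowest there on replicate 2.

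The other cell type lists moved as follows beside the members. Of 6 Schwann and glia markers, 3 were lower (Sox10, -1.05; S100b, -1.63; Fabp7, -1.01), the same 3 without mutant replicate 2 (-0.99, -1.85 and -0.88), and the list's mean was -0.56 to -0.36 in wild type, -1.33 to -1.12 in mutants 1, 3 and 4 and -0.56 in mutant replicate 2. Of 8 islet hormone genes, 2 were lower with all arrays (Sst, -2.24, adjusted p 0.0392; Ghrl, -1.35, adjusted p 0.0365) and 4 without mutant replicate 2, where Sst (-1.74), Ghrl (-1.12) and the insulin genes passed, Ins2 (-0.89, adjusted p 0.00661) and Ins1 (-0.75, adjusted p 0.026). Gcg, the glucagon gene, had 0.22 (adjusted p 0.467), and 0.40 (adjusted p 0.0581) without replicate 2. The mean of the hormone genes was 3.61 to 4.06 in wild type, 3.06 to 3.47 in mutants 1, 3 and 4 and 1.84 in replicate 2, where the granins were lowest too. Of 6 endocrine precursor genes, 5 were lower with all arrays and 6 without mutant replicate 2, where Neurod1 joined them (-1.60, adjusted p 0.0752, and then -1.13, adjusted p 0.00062). None of 8 acinar, 6 mesenchyme, 4 endothelium or 4 mast cell markers was called with all arrays, and without mutant replicate 2 the acinar factor Bhlha15 was lower (-0.35, adjusted p 0.0182). Of 4 erythroid markers, Hbb-y was higher in both fits (1.67 and 1.48). Of 7 duct and trunk genes, 2 were lower (Sox9 and Spp1) in both fits, 1 was higher with all arrays (Onecut1, 0.94), and 3 were higher without mutant replicate 2, with Krt19 (0.47, adjusted p 0.0064) and Cftr (1.46, adjusted p 0.0027). The part of these cell types in the members' values was not tested.

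Read over samples, the shift of the members was unequal among the mutants. The median deviation of the 36 members from their wild-type means was -0.68 on mutant replicate 1, -0.52 on replicate 2, -0.14 on replicate 3 and -0.56 on replicate 4, against -0.04 to 0.09 in wild type. Mutant replicate 3 was thus the nearest to wild type, with 22 of 36 members below the wild-type mean. The count was 32 in replicate 1, 24 in replicate 2 and 30 in replicate 4. Over all features the same median deviation was -0.04 to 0 on the mutant arrays. For the granins alone, all 4 mutants were at least 0.53 lower than wild type at the median. The spread of a member over the wild-type pools had a median SD of 0.16 (0.04 to 0.88), and over the mutant pools one of 0.49 (0.08 to 1.89). Mutant replicate 2 was the lowest mutant in 19 members and the highest in 14.

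Where a member had more than 1 probe past the filter, the other probes served as a second reading of the same samples. Over 20 such genes, 24 other probes were tested, and 18 had the sign of the main probe with all arrays. None of the 24 was called with all arrays, where 3.42% of all features were lower and 2.11% higher. Without mutant replicate 2, 4 of the 24 were lower and 1 higher, beside 10.6% and 6.77% of all features. The share called over all probes was not counted. Of the 4 members called lower with all arrays, Abcc8 and Cadps had a second probe past the filter, and both of these were negative.

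**Figure D5:**
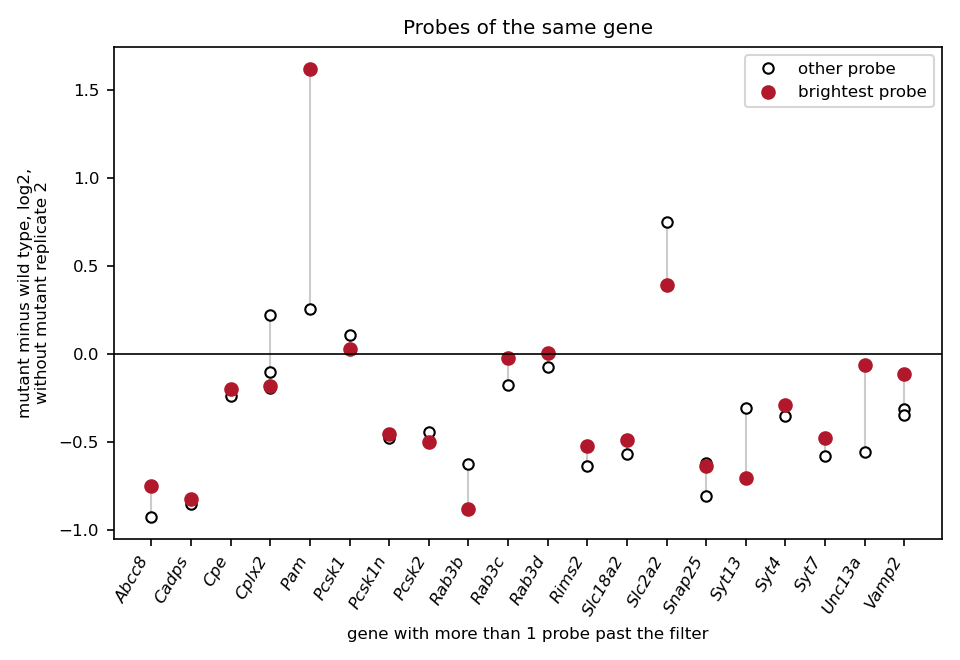
Mutant minus wild-type log2 difference without mutant replicate 2 for the main probe of each gene (filled) and its other probes past the filter (open), for the 20 members with more than 1. The probes of Pam lie farthest apart, while those of Cadps, Pcsk1n, Pcsk2 and Cpe nearly coincide.

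Beyond the members, 102 other genes of regulated secretion were listed, of which 99 were on the array and 91 were tested. With all arrays 10 of 91 were lower (11.0%, against 3.42% of all features) and 0 were higher, with a median of -0.11. Without mutant replicate 2, 20 were lower (22.0%, against 10.6%) and 3 higher. The smallest adjusted p belonged to Rimbp2, a scaffold that links RIM proteins to calcium channels. It read -0.70, -0.71, -0.52 and -0.45 in wild type and -1.80, -2.34, -1.55 and -1.78 in the mutants, with no overlap, and fell 2.42-fold (-1.27, SE 0.17, adjusted p 0.00991; -1.11 without mutant replicate 2). Pclo, the active zone scaffold piccolo, read 0.22, 0.26, 0.18 and 0.18 in wild type and -0.19, -0.38, -0.15 and -0.30 in the mutants, again with no overlap. It fell by 0.47 on the log2 scale (SE 0.07, adjusted p 0.0141), and by 0.42 without mutant replicate 2. Slc17a9, the vesicular nucleotide transporter, listed on the array as 1700019H03Rik, read -0.42, -0.38, -0.38 and -0.19 in wild type and -1.27, -1.57, -1.06 and -0.84 in the mutants, again with no overlap. It fell 1.79-fold (-0.84, SE 0.15, adjusted p 0.027; -0.72 without mutant replicate 2). Also called lower, in both fits, were Bsn (-0.93), Sytl4 (-1.23), Bace2 (-0.52), Nnat (-1.0), Rims3 (-0.81) and Rab27a (-1.19). Bsn and Rims3 were highest on wild-type replicate 1, lowest among wild type on replicate 2, and highest on replicate 3 among mutants 1, 3 and 4. That is the array order described above beside the neuron markers, and Sytl4, Bace2, Nnat and Rab27a did not have it. The part of nerve tissue in the values of Bsn and Rims3 was not tested. Sytl4 encodes granuphilin and Rab27a the small GTPase that binds it on insulin granules.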

How the data were processed

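Per the labels' protocols, 250 ng of RNA per pool was labelled with Cy3 and hybridised to 1 array. The deposited files hold spot intensity from Agilent Feature Extraction 9.5.3.1, per the file headers, where processed signals were background-subtracted within the array and not normalised between arrays (design 014868, mm8). The submitters' processing notes name limma without a version. Here control and outlier spots were dropped, spots of a probe averaged, log2 taken and each array's 75th percentile subtracted. Probes well above background on at least 4 of 8 arrays were kept (29468 of 41174), and the brightest per gene was tested (19390 features, 15821 of them named) with limma 3.58.1 in R 4.3.3, genotype as the only term, two-sided, Benjamini-Hochberg adjusted over all features. Over all features 4944 had an unadjusted p under 0.05.

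Members were matched by the array's symbol (64 probes, 14 members with 1 probe). Other probes were named through RefSeq by accession (24442), symbol (6224) or synonym (2385), and 8058 had no name. 1 probe that RefSeq places in Syt7 under another symbol was not used. Values on every array are printed for members called with all arrays or with 1 left out and for the brightest of each role, and of the wider list the called genes with the 4 smallest adjusted p, of which 1 is not reported here. The members, the gene lists and this naming rule were all chosen with earlier results of these data known, so no list has a test. Second probes have their p-values from the same model fitted over all 29468 probes. The fit was run on simulated data with independent noise between arrays. These had no array standing apart and no slide effect, so that run does not bear on either limit. The deposited table of series values followed the raw median signal (r at least 0.9996 on 7 arrays, 0.9817 on mutant replicate 2). It was used only as an alternative. With 4 arrays a genotype, the number of arrays limits precision, and the smallest p an exact permutation test could give is 0.0286. Alternatives were other scalings, background correction, filters, probe choices, array weights, the replicate number as a block and each array left out.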

Additional observations from a re-analysis of the deposited data

Results flagged for a closer look

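In each genotype of each member, 72 groups of 4 arrays in all, the highest and lowest array was checked for a gap to its neighbour above the share of the group's range that Dixon's 95% limit allows for 4 samples. Chance alone gives about 1 such group in 20 on average, but the groups share the same arrays, so their count has no test. The share over all features was not counted. There were 11, and 8 of them came from mutant replicate 2, the array that stands apart in its signal. Mutant replicate 2 was far below the other mutants in Slc30a8 (-6.90, not well above background), Slc2a2 (-0.48) and G6pc2 (-1.89). It was far above them in Kcnj11 (-0.07), Rab3c (-2.67), Rph3al (-0.91) and Syt7 (-2.21). In Unc13a it was also the highest (-3.15), by a small amount, since the other 3 mutants nearly coincided. The other 3 were wild-type arrays far below the rest of their group: replicate 2 in Pcsk1n (2.02), replicate 4 in Ptprn2 (-4.13) and replicate 1 in Scgn (-1.64). The cause of these gaps was not tested.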

How the results depend on the processing

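The 5 called members kept their sign under every alternative run for them (Chgb was not analysed in the series table), but the calls did not all hold. Features called lower and higher, 663 and 409 with the main setting, were 24 and 21 with arrays centred on their median, 63 and 17 with normexp, 1390 and 793 with the deposited series table, 244 and 153 with no filter, and 2790 and 1894 with array weights. Averaging probes gave 405 lower. Members called lower, 4 with the main setting, were 0 with median centring, 0 with normexp, 10 with the series table, 2 with no filter and 13 with array weights. Members called higher, 1 with the main setting, were 0 with median centring, normexp, averaged probes or the probe brightest in wild type, and 2 with array weights. The median member difference of -0.41 was -0.81 with median centring and -0.74 with quantile normalization, where the median of all features was -0.40 and -0.06. With 1 array left out, features lower ranged from 222 to 2046, features higher from 132 to 1312, members lower from 1 to 13 and members higher from 1 to 2, with the upper ends all without mutant replicate 2. The cause of these shifts was not tested.

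Replicate numbers gave no clear pairing of the samples. Deviations of same-numbered arrays from their genotype means correlated at 0.02, -0.02, 0.06 and 0.13. The replicate 4 arrays correlated best with each other, and wild-type replicate 3 correlated best with mutant replicate 3. Mutant replicate 3 and the arrays numbered 1 and 2 did not correlate best with their own number. The genotype means included mutant replicate 2, so these values cannot exclude pairing by litter. With the replicate number as a block, 75 features were lower and 70 higher, and 0 members were called in either direction.

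Of members not called with all arrays, 12 changed sign under some setting. With 1 array left out, the ranges that crossed 0 were those of Pcsk1 (-0.18 to 0.03), Scg5 (-0.16 to 0.22), Stx1a (-0.15 to 0.10), Rab3c (-0.02 to 1.03), Rab3d (-0.26 to 0.00), Rph3al (-0.37 to 0.84), Unc13a (-0.09 to 0.03), Syt4 (-0.44 to 0.27) and Syt7 (-0.48 to 0.74). Median centring gave Scg5 -0.38, Slc2a2 -0.23, Stx1a -0.39, Syt5 -0.20 and Syt7 0.00. Quantile normalization gave Stx1a -0.07, Rab3c -0.06, Syt5 -0.79 and Syt7 -0.15. Normexp gave Stx1a -0.08, Rab3c -0.31, Rph3al -0.09, Syt5 -0.37 and Syt7 -0.36. The series table gave Stx1a -0.08, Syt5 -0.11 and Syt7 -0.30. Array weights gave Pcsk1 0.07, Stx1a -0.13, Rab3d 0.02, Rph3al -0.32, Syt4 0.01 and Syt7 -0.58, and averaged probes gave Pcsk1 0.04 and Cplx2 0.06. Signal limits Slc30a8 and Slc18a1 on mutant replicate 2 and Rab3c on wild-type replicate 2, where their probes were not well above background.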
